A study of Mus musculus with 12 samples.

Results

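The genes described here are the ligands and receptors of axon guidance: ephrins (Efna, Efnb) and Eph receptors (Epha, Ephb), semaphorins (Sema) with plexins (Plxn) and neuropilins (Nrp1, Nrp2), Slits with Robo receptors, and netrins (Ntn) with Dcc and Unc5 receptors. They were taken by name from the rows of an expression table, X-linked rows left out, which gave 63 genes of 14899 rows, 14415 of them autosomal. Of these 63 genes, 33 are ligands and 30 are receptors. The rule used no measured value. It left out 3 rows of the same families on the X chromosome, and 2 rows that give such a name only after another one, for Sema3a and Ntn3.

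Guidance ligands are displayed on or released by cells along the path of a growing axon, and their receptors on the growth cone turn them into attraction or repulsion by remodelling actin and microtubules. Ephrins are membrane-bound and signal through Eph receptor tyrosine kinases, most class 3 semaphorins bind neuropilins that signal with plexins, Slits repel axons through Robo receptors, and netrin 1 attracts through Dcc and repels through Unc5 receptors. In neural progenitors several of them act before any axon forms, on cell position, proliferation and the borders between domains.

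The study asked which genes are read from a single allele that differs between clones of the same cell type (random monoallelic expression). Polyadenylated RNA was sequenced from hybrid mouse cells that carry a 129Sv and a Cast/EiJ (Cast) genome, so that reads over strain variants name the allele. NPC_XX are 4 clonal neural progenitor (NPC) lines, called 129, C2, G4 and E1.2, grown from the XX embryonic stem (ES) line F1-21.6. NPC_XY are 4 such clones, called mC3, mE6, mB4 and mG3 here, grown from the XY ES line F1-23. The ES groups are those 2 lines, grown with leukaemia inhibitory factor on mouse embryonic fibroblast feeders that had been inactivated with mitomycin C. The labels name no deletion or transgene in any group. For each clone and each ES line 1 library was used, so single values have no replicate error, and p-values measure the spread between these libraries. The library names of the XX clones begin with another prefix than those of the rest. Among the clones, effects of the line, its sex chromosomes and the set of libraries therefore cannot be told apart.

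Total allele-informative counts per library ran from 61375911 to 119266777, and the median guidance gene had 333 to 1250 counts. The clones carried the markers of their label: the summed level of 10 of 11 neural progenitor markers was 6247 to 9101 CPM (counts per 1000000) in NPC clones and 484 to 519 CPM in ES lines. For 5 of 12 pluripotency markers with a row it was 2.99 to 6.73 CPM in NPC clones, against 1143 to 2207 CPM in ES lines. Of the 10 progenitor markers 8 were above both ES lines in every clone, and Sox2 was below them in every clone. For markers of other cells, sums in NPC clones and ES lines were 244 to 1834 and 268 to 305 CPM for 7 of 8 astrocyte markers, 19.0 to 282 and 11.3 to 26.7 CPM for 7 of 10 neuron markers, and 207 to 507 and 173 to 196 CPM for 5 of 8 oligodendrocyte markers. They were 20.2 to 79.1 and 99.4 to 146 CPM for 10 of 12 fibroblast markers, which feeders would carry, 3.80 to 17.8 and 151 to 159 CPM for all 5 endothelial markers, and 0 to 6.01 and 2.13 to 2.41 CPM for 2 of 6 endoderm markers. Sums of the astrocyte, neuron and endoderm lists overlapped between clones and ES lines. Single markers went both ways: in every clone 4 astrocyte markers were above both ES lines and 1 below, 2 neuron markers above and 2 below, and 1 oligodendrocyte marker above and 1 below. The fibroblast list had 6 markers below both ES lines in every clone and none above. At 0 CPM in both ES lines were Dcx, S100b and Aqp4. The part of these cell types in the results was not tested.

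The first comparison asked which guidance genes differ between NPC clones and ES lines. Guidance genes changed in both directions, with the plexins and netrins mostly higher and the semaphorins split. Among the 63 genes, 22 were higher in NPC clones, 20 were lower and 21 did not pass an adjusted p of 0.05 (edgeR quasi-likelihood test with the line as covariate, Benjamini-Hochberg adjustment over all genes). In all, 42 of the 63 (66.7%) passed, where 63.0% of all 14561 genes tested did, with 33.3% higher and 29.7% lower, so the share of guidance genes that changed was near that of all genes. The median log2 fold change was 0.35 over the guidance genes, also with the 2 genes that had no ES counts set to their lower bounds, and 0.11 over all genes tested. By their CPM, 35 genes (55.6%) had no overlap between clones and ES lines, where 62.0% of all genes had none. No row of the table has a highest clone count under 11, so the table lacks genes read solely in ES lines, and the count of lower genes covers only genes read in a clone. Under 11 counts in both ES lines were 4 of the 63 guidance genes, Epha5 and Epha3 among them, and 1635 of all 14899. These have a row through the clones alone, so the direction of their change was fixed in advance. In bulk RNA, fewer cells of a type and less RNA per cell cannot be told apart. By role, 9 ligands were higher, 12 lower and 12 did not pass, and 13 receptors were higher, 8 lower and 9 did not pass.

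**Figure D1:**
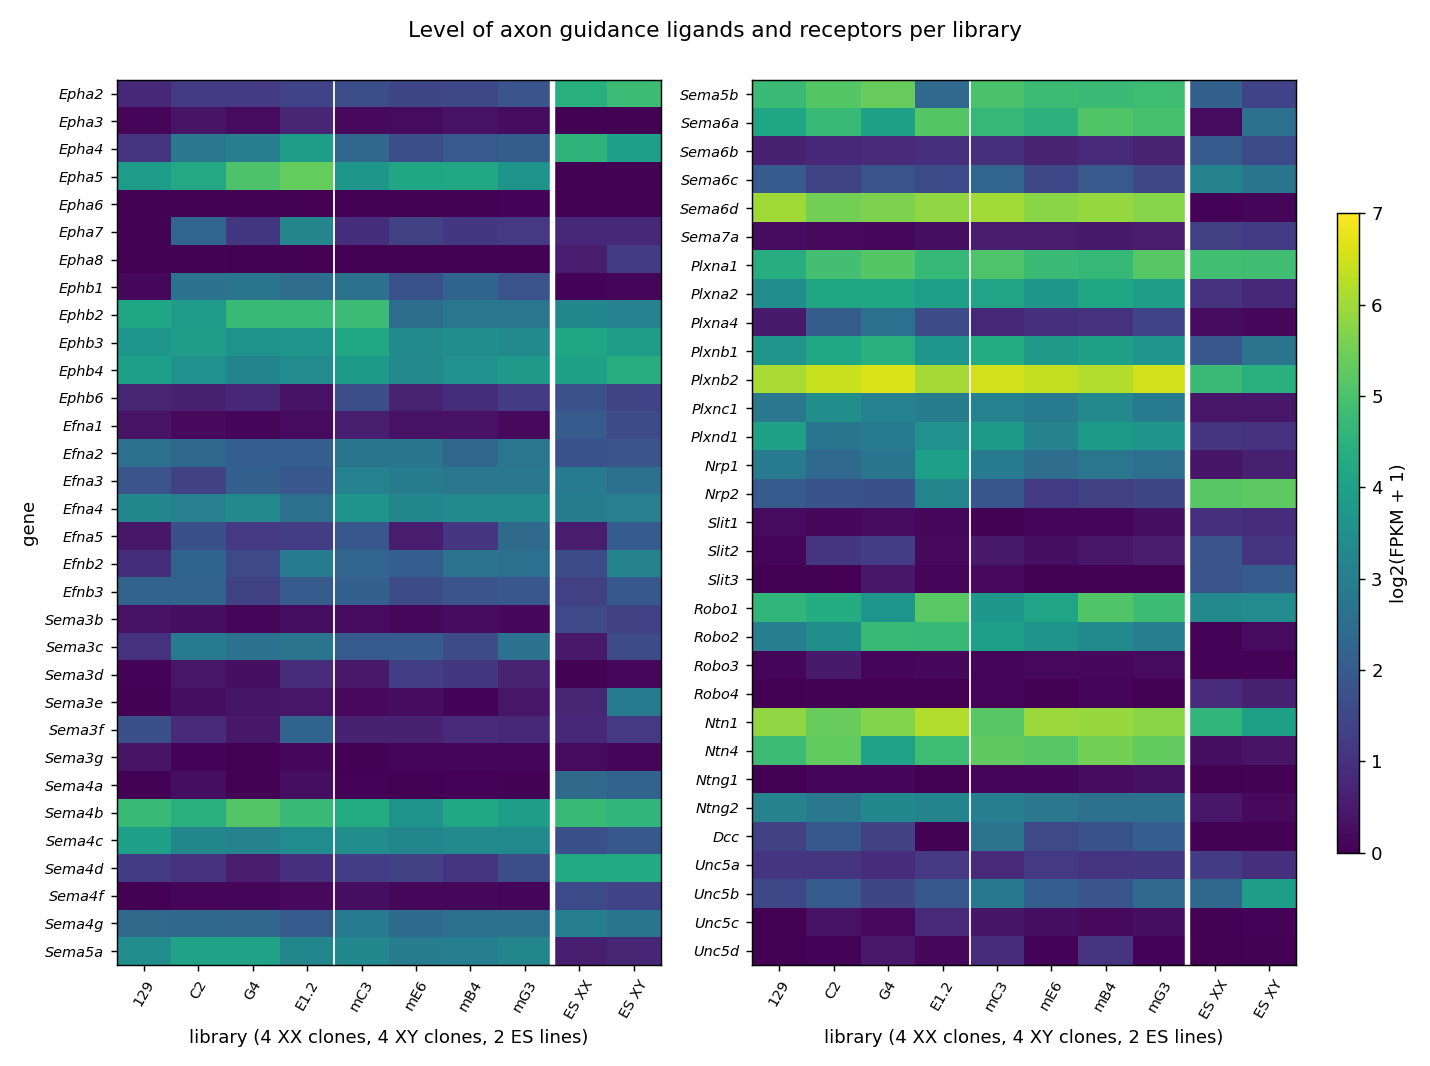
Level of the 63 guidance genes in the 8 NPC clones (left of the thick line, XX clones before XY clones) and the 2 ES lines, as colour on a log2(FPKM + 1) scale. Sema6d, Ntn4 and Epha5 are bright in every clone and dark in both ES lines, while Nrp2, Sema4d and Epha2 are brighter in the ES lines.

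Levels between genes are compared here in FPKM, the deposited fragment values per transcript length and library size, whose median over the clones was under 1 for 22 genes and at least 10 for 17. The most abundant in the clones was Plxnb2, a receptor of class 4 semaphorins, at 65.5 to 98.8 FPKM (median 83.2), against 26.2 and 20.5 FPKM in the XX and XY ES lines. Next were Ntn1 with a median of 54.8 FPKM, Sema6d with 54.6 FPKM and Ntn4 with 36.7 FPKM. Ntn1 and Sema6d overlapped across the clones, whose FPKM ran from 35.3 to 72.8 and from 44.3 to 63.9, so their order is not fixed. In the ES lines the highest was Nrp2, at 35.2 and 37.1 FPKM.

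Promoters of 3 genes, picked after their values were seen, are shown for the results that turn on them: Epha5 for its large rise, Nrp2 as the most abundant guidance gene of the ES lines, and Ephb2 for its allele shares. In the build of the files, mm9, these genes span chr5:84483582-84846751, chr1:62749676-62865266 and chr4:136203463-136391862. The windows run from 250 bases before to 50 bases after the start of the transcript (RefSeq, build GRCm38.p6, read along the gene, 5′ to 3′). Capitals mark CpG, the dinucleotide that DNA methylation acts on.
Epha5, chr5:84417333-84417632, minus strand, 30 CpG: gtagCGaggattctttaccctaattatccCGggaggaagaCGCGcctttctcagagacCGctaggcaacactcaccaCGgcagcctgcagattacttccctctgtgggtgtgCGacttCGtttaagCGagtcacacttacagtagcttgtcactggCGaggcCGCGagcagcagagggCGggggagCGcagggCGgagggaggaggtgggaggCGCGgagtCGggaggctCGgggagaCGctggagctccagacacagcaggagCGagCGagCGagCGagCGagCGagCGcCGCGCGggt
Nrp2, chr1:62703067-62703366, plus strand, 37 CpG: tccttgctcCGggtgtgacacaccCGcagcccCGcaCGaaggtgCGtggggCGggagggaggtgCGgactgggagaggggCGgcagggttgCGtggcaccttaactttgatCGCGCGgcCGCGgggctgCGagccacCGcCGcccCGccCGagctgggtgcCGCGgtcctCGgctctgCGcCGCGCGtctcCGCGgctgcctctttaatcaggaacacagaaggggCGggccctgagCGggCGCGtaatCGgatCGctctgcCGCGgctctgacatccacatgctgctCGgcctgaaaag
Ephb2, chr4:136835963-136836262, minus strand, 24 CpG: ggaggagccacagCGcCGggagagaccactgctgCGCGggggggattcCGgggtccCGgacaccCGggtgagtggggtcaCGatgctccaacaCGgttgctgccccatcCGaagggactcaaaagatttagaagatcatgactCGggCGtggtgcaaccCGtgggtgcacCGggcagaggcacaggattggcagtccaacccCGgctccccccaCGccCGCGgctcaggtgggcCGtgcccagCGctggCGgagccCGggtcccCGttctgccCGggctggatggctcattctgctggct
A window was given for 53 of the 63 genes, and the first listed one was counted where a gene had several. Its number of CpG had a median of 23, with a range of 2 to 56, against a median of 21 and a range of 0 to 64 over 9195 autosomal genes of the table with a window. The median was 21 among 18 genes higher in NPC clones and 21.5 among 18 genes lower, so the medians of both sets were near that of all genes. Methylation was not measured.

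Semaphorins, 19 genes, fell into 6 that were higher in NPC clones, 9 that were lower and 4 that did not pass. The class 6 semaphorin Sema6d, a transmembrane ligand of plexin A1, stood at 44.3 to 63.9 FPKM (median 54.6) in NPC clones and at 0.0432 and 0.0944 FPKM in the XX ES and XY ES line. Its log2 fold change was 10.41 ± 0.29 (SE, adjusted p = 1.13e-07), with every clone above both ES lines. Sema5a, a transmembrane semaphorin with thrombospondin repeats, had 6.83 to 15.4 FPKM (median 8.43) in NPC clones, against 0.510 and 0.677 FPKM in the ES lines, a log2 fold change of 4.20 ± 0.44 (adjusted p = 4.73e-05). Sema6a had 15.0 to 34.9 FPKM (median 24.9) in the clones, whereas the ES lines differed from each other, with 0.146 FPKM in the XX and 5.23 FPKM in the XY line. The log2 fold change of Sema6a was 3.55 ± 1.01 (adjusted p = 0.0125), 7.04 without the XY ES line and 2.28 without the XX ES line. It was not called with the ES lines and XY clones alone (adjusted p = 0.0518). Sema5b averaged over the clones was higher too (log2 fold change 3.31 ± 0.85, adjusted p = 0.00773, and 0.0753 without the XY ES line), but clone E1.2 had 4.28 FPKM where the other 7 had 26.1 to 40.1 FPKM.

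Also higher were Sema4c (log2 fold change 1.86 ± 0.19, adjusted p = 3.71e-05) and the secreted Sema3d (3.04 ± 1.08, adjusted p = 0.0341, lost under 5 of 18 alternatives).

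The lower semaphorins were Sema3b, Sema3e, Sema4a, Sema4d, Sema4f, Sema4g, Sema6b, Sema6c and Sema7a, so classes 3, 4 and 6 each had members in both directions. Sema4d, a ligand of plexin B1, had 0.477 to 2.22 FPKM (median 1.25) in NPC clones and 18.0 and 18.3 FPKM in the XX ES and XY ES line (log2 fold change -3.94 ± 0.33, adjusted p = 1.44e-05). Sema4a, known in the immune system, had 0 to 0.196 FPKM (median 0.0442) in NPC clones and 4.37 and 3.70 FPKM in the ES lines (log2 fold change -6.58 ± 0.97, adjusted p = 0.000347). All 8 clones lay below both ES lines for both genes. Sema4f and the secreted Sema3b followed, with log2 fold changes of -4.89 ± 0.92 (adjusted p = 0.00143) and -3.85 ± 0.46 (adjusted p = 0.000101). Sema3e, a secreted ligand that binds plexin D1 directly, had 0.0270 to 0.342 FPKM in NPC clones, with 0.6998 FPKM in the XX and 6.38 FPKM in the XY ES line. Its log2 fold change of -4.43 ± 1.02 (adjusted p = 0.00437) was -1.72 without the XY ES line and then not called. Sema7a, which is anchored to the membrane by a lipid, was lower as well (log2 fold change -2.50 ± 0.37, adjusted p = 0.000373, and -1.37 without the XX ES line). Sema6b and Sema6c had log2 fold changes of -1.91 ± 0.41 (adjusted p = 0.00301) and -1.54 ± 0.31 (adjusted p = 0.0023), and Sema4g of -0.62 ± 0.22 (adjusted p = 0.032).

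Plexins transmit semaphorin signals, and 6 of the 7 measured were higher in NPC clones. Plxnc1, the receptor of Sema7a, had 5.91 to 9.96 FPKM (median 7.15) in NPC clones and 0.337 and 0.331 FPKM in the XX ES and XY ES line (log2 fold change 3.92 ± 0.29, adjusted p = 6.75e-06). Plxna2, which class 6 semaphorins bind, had 9.77 to 16.7 FPKM (median 15.2) against 1.04 and 0.746 FPKM in the ES lines (3.86 ± 0.33, adjusted p = 1.7e-05). Neither overlapped between clones and ES lines. Plxna4, Plxnd1, Plxnb1 and Plxnb2 were higher by 3.74, 3.33, 1.93 and 1.65 on the log2 scale, of which Plxna4 was not called without the XX ES line (adjusted p = 0.0655). Plxna1, the 7th, had 19.4 to 35.0 FPKM in NPC clones and 28.7 and 27.7 FPKM in the ES lines, a log2 difference of -0.05 ± 0.23 (adjusted p = 0.86).

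The neuropilins, co-receptors of class 3 semaphorins, changed in opposite directions. Nrp1, also a co-receptor for VEGF, had 4.28 to 14.4 FPKM (median 5.65) in NPC clones and 0.316 and 0.541 FPKM in the XX ES and XY ES line, higher by 4.14 ± 0.61 on the log2 scale (adjusted p = 0.000358). Nrp2 had 1.33 to 8.04 FPKM (median 2.33) in NPC clones and 35.2 and 37.1 FPKM in the ES lines, with a log2 fold change of -4.18 ± 0.44 (adjusted p = 4.91e-05). In both genes all clones lay on 1 side of both ES lines.

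**Figure D2:**
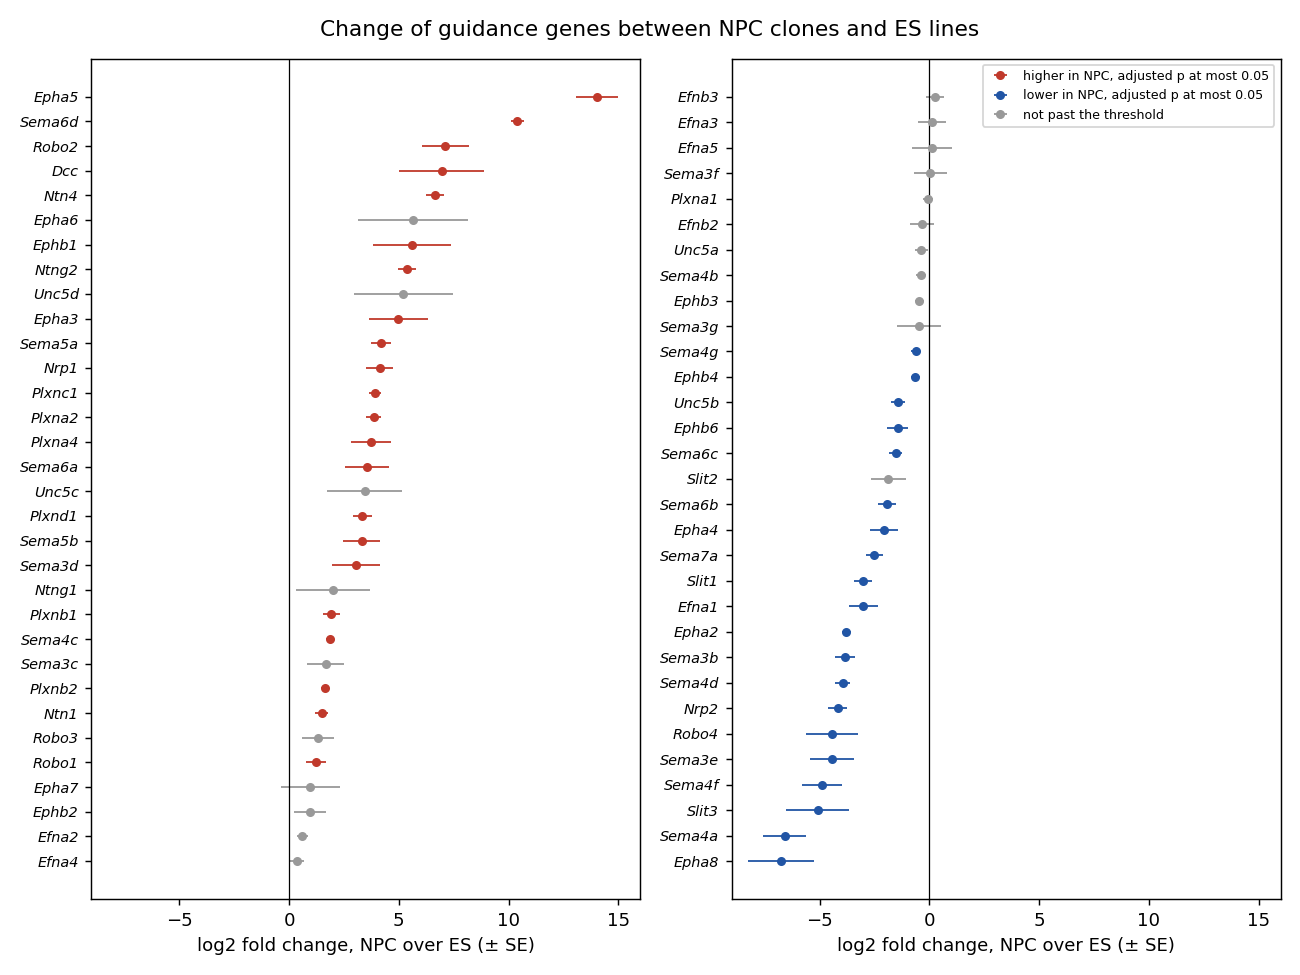
Log2 fold change of each of the 63 guidance genes between 8 NPC clones and 2 ES lines (positive, higher in NPC), ordered by size. Bars are 1 SE, worked back from the log2 fold change and the F statistic of the edgeR fit. Red and blue points are the 22 higher and 20 lower genes; the fitted value of Epha5 rests on 0 counts in both ES lines and depends on the prior of the fit, as does that of Epha6, which did not pass.

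Eph receptors, 12 genes, had 3 that were higher, 5 lower and 4 that did not pass. Epha5, a receptor of A ephrins in the brain, had 11.3 to 40.0 FPKM (median 16.8) in NPC clones and no counts in either ES line. Against a floor of 3 counts over both ES lines, its mean CPM over the clones was at least 1151-fold higher (adjusted p = 1.01e-05). Epha6 also had no ES counts, but its highest clone had 21 counts and its change did not pass (adjusted p = 0.0802). Ephb1 had 2.41 to 5.60 FPKM in 7 clones, but 0.109 FPKM in clone 129, where the XX and XY ES lines had 0.0461 and 0.0794 FPKM. Its log2 fold change was 5.60 ± 1.77 (adjusted p = 0.0203, and 0.0926 without the XX ES line). Epha3 was higher at a low level, 0.0769 to 0.697 FPKM in NPC clones against 0.0298 and 0.0381 FPKM in the ES lines (4.98 ± 1.33, adjusted p = 0.0095). Without the XY ES line the log2 fold change was 12.69 for Ephb1 and 10.14 for Epha3, since the XX ES line then left as the only one had 0 counts of either.

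Epha2, a receptor known from pluripotent and epithelial cells, had 0.744 to 2.57 FPKM (median 1.70) in NPC clones and 20.3 and 26.9 FPKM in the XX ES and XY ES line. It was lower in every clone than in both ES lines (log2 fold change -3.78 ± 0.20, adjusted p = 1.27e-06). Epha4, which binds ephrins of both classes, ran from 1.06 FPKM in clone 129 to 14.0 FPKM in E1.2, with 22.3 and 14.4 FPKM in the ES lines (-2.06 ± 0.63, adjusted p = 0.0182), and was not called whichever ES line was left out. Epha8 had at most 20 counts in any clone and 166 and 500 counts in the XX ES and XY ES line (-6.75 ± 1.52, adjusted p = 0.00383, and 0.0792 without the XY ES line). Ephb2 and Ephb3, which bind B ephrins, were well read in every library and did not pass (adjusted p = 0.269 and 0.0907).

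Of the 7 ephrins, Efna1 was lower and the other 6 did not pass. Efna1, the ligand of Epha2, had 0.0915 to 0.513 FPKM (median 0.215) in NPC clones and 3.03 and 2.06 FPKM in the XX ES and XY ES line. The clones lay below both ES lines (log2 fold change -3.01 ± 0.66, adjusted p = 0.00336, and 0.0861 without the XX ES line). Efna5, another A ephrin, ranged over the clones from 0.378 to 4.37 FPKM and overlapped the ES lines at 0.485 and 3.12 FPKM.

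Of the 3 Slits 2 were lower, and of their 4 Robo receptors 2 were higher and 1 lower. Slit1 had 0.0373 to 0.201 FPKM (median 0.104) in NPC clones and 0.932 and 0.843 FPKM in the XX ES and XY ES line (log2 fold change -3.01 ± 0.42, adjusted p = 0.000239). Slit3 had 0 to 0.379 FPKM (median 0.0295) in NPC clones and 2.51 and 3.07 FPKM in the ES lines (-5.08 ± 1.43, adjusted p = 0.0121), and was not called whichever ES line was left out. Slit2 had 0.0772 to 1.397 FPKM in NPC clones, overlapping the ES lines at 2.58 and 1.08 FPKM (adjusted p = 0.0704). Robo2, a receptor of Slits, had 6.94 to 25.5 FPKM (median 10.8) in NPC clones and 0.0431 and 0.160 FPKM in the ES lines, with every clone above (7.11 ± 1.07, adjusted p = 0.00038). Robo1 had 11.8 to 35.7 FPKM (median 21.4) in NPC clones and 8.83 and 9.40 FPKM in the ES lines (1.23 ± 0.47, adjusted p = 0.0453). The call of Robo1 was lost under 8 of 18 alternatives, among them leaving out clone 129, C2, mB4, mG3 or either ES line. Robo4, known from endothelium, had at most 25 counts in a clone and 93 and 88 counts in the ES lines (-4.42 ± 1.19, adjusted p = 0.00973, and 0.121 without the XX ES line). Of the 5 endothelial markers, 3 were below both ES lines in every clone and none above. In the XX and XY ES line these were Pecam1 (131 and 120 CPM), Tek (25.7 and 27.1 CPM) and Flt1 (1.68 and 3.88 CPM). Cdh5 (0.0886 and 0.0706 CPM) and Kdr (0.369 and 0.0423 CPM) overlapped the clones.

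Netrins were higher for 3 of 4. Ntn4, a laminin-binding netrin of basement membranes, had 15.5 to 45.8 FPKM (median 36.7) in NPC clones and 0.201 and 0.281 FPKM in the XX ES and XY ES line (log2 fold change 6.65 ± 0.41, adjusted p = 2.61e-06). Ntng2, a netrin anchored to the membrane, had 4.99 to 8.56 FPKM (median 6.50) in NPC clones and 0.349 and 0.128 FPKM in the ES lines (5.37 ± 0.40, adjusted p = 7.45e-06). Ntn1 had 35.3 to 72.8 FPKM (median 54.8) in NPC clones and 23.2 and 14.8 FPKM in the ES lines (1.49 ± 0.28, adjusted p = 0.00154). All 8 clones exceeded both ES lines for these 3 netrins. Of the 5 netrin receptors, Dcc was higher, Unc5b lower, and Unc5a, Unc5c and Unc5d did not pass. Dcc had 1.54 to 5.50 FPKM in 7 clones, but 0.0359 FPKM in E1.2, level with the 0.0364 and 0.0210 FPKM of the ES lines (6.95 ± 1.94, adjusted p = 0.0115). Its log2 fold change was 14.09 without the XX ES line, the XY line having no Dcc counts, and its adjusted p was 0.0613 without the XY ES line. Unc5b had 1.77 to 6.09 FPKM (median 2.85) in NPC clones and 4.01 and 14.1 FPKM in the ES lines (-1.43 ± 0.32, adjusted p = 0.00358), and -0.87 without the XY ES line, where it was not called.

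Among 69 other genes of the pathway, adaptors and cytoskeletal effectors for the most part, 31 were higher in NPC clones, 13 lower and 25 did not pass, with a median log2 fold change of 0.67. The 44 that passed were 63.8%, near the 63.0% of all genes tested. Some were picked as examples after their values were seen. The adhesion molecule Chl1 and the netrin receptor Dscam were higher by 11.73 and 6.41 on the log2 scale. Cntn2, an adhesion molecule of early axons, and the growth factor receptors Met and Ret were lower, with log2 fold changes of -7.64, -4.89 and -4.65.

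Clones differed in level. Clone 129 was the lowest of the 8 in CPM for 23 of the 63 guidance genes (36.5%), where it was the lowest for 16.7% of all genes tested. It had 0 counts of 7 guidance genes, where the other clones had 0 counts of 1 or 2, and the smallest total count of the clones. Clone 129 also had the fewest autosomal genes with at least 20 counts, 12074, where the other clones had 12331 to 13040. Genes at 0 counts were not counted over the whole table, so the 7 have no background beside them. Clones E1.2 and mC3 were each the highest for 15 genes (23.8%), against 21.7% and 10.1% of all genes. In clone 129, Epha7 had 0.0325 FPKM where the other clones had 0.875 to 8.02 FPKM. In E1.2, Epha7 at 8.02 FPKM, Epha4 at 14.0 FPKM, Nrp1 at 14.4 FPKM and Nrp2 at 8.04 FPKM were at the top of the clones, while Dcc and Sema5b were at the bottom. Markers of other cells were uneven in E1.2. Of 7 astrocyte markers 4 were the highest of all clones there, S100b, Gfap, Aqp4 and Slc1a2, the last at 1274 CPM (26.5 to 99.0 CPM in the others), while Gja1, Aldoc and Clu lay within the range of the others. Of 10 fibroblast markers 7 were the highest in E1.2, among them Col3a1 at 25.04 CPM (0 to 1.23 CPM), and Fbln1 was the lowest. Of 7 neuron markers Dcx, at 275 CPM (4.14 to 125 CPM), and Snap25 were the highest, and Elavl4 and Tubb3 the lowest. Of 10 progenitor markers 4 were the lowest in E1.2, among them Nes at 638 CPM (1697 to 2841 CPM). Without clones 129 and E1.2, 24 guidance genes were higher in NPC clones and 21 lower. Calls over all genes without these clones were not counted, so these counts say nothing about guidance genes in particular.

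The comparison of XX with XY clones called 1 guidance gene of 60 tested (1.67%), where 1.29% of all genes were called, 0.876% as higher in XX clones and 0.412% as lower. Sema7a had 0.171, 0.135, 0.109 and 0.187 FPKM in the XX clones (129, C2, G4, E1.2), against 0.484, 0.461, 0.419 and 0.480 FPKM in the XY clones (mC3, mE6, mB4, mG3). The groups did not overlap (log2 fold change -1.63 ± 0.25, adjusted p = 0.038), but the call was lost on leaving out any clone other than 129, with an adjusted p of at most 0.135. Another 9 of the 10 guidance genes with an unadjusted p under 0.05 did not pass the adjustment. For the interaction of line and cell type, whether the NPC against ES difference differs between the lines, 0 of 63 guidance genes passed in edgeR, where 0.101% of all genes did (0.0808% as higher, 0.0202% as lower), and 8 had an unadjusted p under 0.05. The nearest was Sema6a, whose NPC against ES difference was larger in the XX line by 4.74 ± 0.67 on the log2 scale (adjusted p = 0.0515). It passed in DESeq2 with Sema7a, without the TMM scaling, and without clone E1.2. The limma fit on log2(FPKM + 1) called Epha8 and Sema3e instead. The interaction compares 1 ES library per line. Both ES libraries share the name prefix of the XY clones, so the XX difference crosses sets of libraries and the XY difference does not. Line and set of libraries therefore cannot be told apart in the interaction either. How many of all genes had an unadjusted p under 0.05 in these comparisons was not counted, so the 10 and the 8 have no background beside them.

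The allele of origin was read as the share of counts from 129. A gene with at least 20 counts in a library was called monoallelic where its major allele reached 85% and an exact binomial test within the library passed after adjustment at 0.05, and biallelic where neither allele had more than 70%. Among 451 testable pairs of a guidance gene and a clone, 31 (6.87%) were monoallelic, where 6.79% of all such pairs of autosomal genes were. In the ES lines 7 of 109 pairs (6.42%) were, where 5.49% of all pairs were. The calls in clones lay in 18 genes, 11 for the 129 and 20 for the Cast allele. They rested on few counts, with a median of 65 and a highest of 476, and 23 of the 31 were under 100. At 100 counts or more, 8 of 375 pairs (2.13%) were monoallelic, where 4.06% of all pairs were. Per clone 2 to 6 guidance genes were monoallelic. The share was 10.2% in E1.2, 10.2% in mC3 and 10.0% in clone 129, where 6.69%, 6.41% and 8.37% of all testable genes were, and 3.45% to 7.02% in the other 5 clones, where 5.83% to 6.99% of all genes were.

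**Figure D3:**
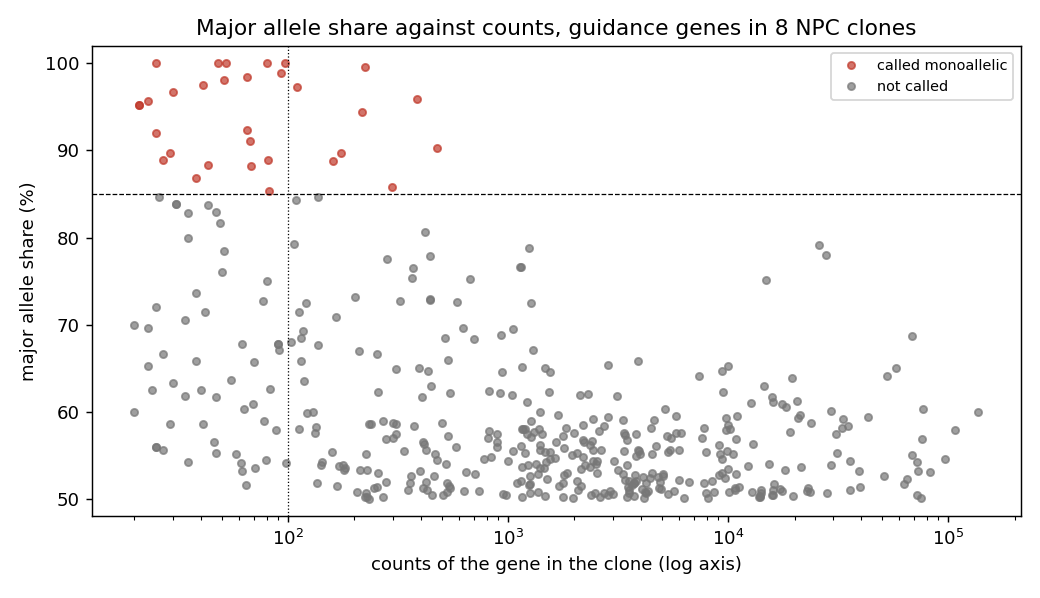
Major allele share of each guidance gene in each NPC clone with at least 20 counts, against its counts on a log axis. Red points are the 31 monoallelic calls, none of which exceeds 476 counts, and the dotted and dashed lines mark 100 counts and 85%.

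Of the 54 guidance genes that were testable in at least 6 clones, 34 (63.0%) were biallelic in every testable clone, where 70.2% of all 12108 genes were, and 47 of the 63 genes were testable in all 8 clones. The remaining 9 were testable in fewer than 6: Slit3, Sema3g, Epha6, Sema4a, Efna1, Epha8, Sema3e, Unc5d and Robo4. Of the 54, none used the same single allele in every testable clone, where 1.01% of all genes did. Plxna1 was among the most even, with a 129 share of 49.0% to 51.0% in the clones while the ES lines had 49.4% (XX) and 46.4% (XY). Sema6d, at 68341 to 107664 counts in the clones, had a share of 50.1% to 57.9% there. In each ES line all of its 47 counts came from 129 (95% exact binomial interval 92.5 to 100%).

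By the rule for random monoallelic genes, monoallelic in at least 1 clone and biallelic or of the other allele in another, 11 of the 54 (20.4%) were called, where 13.7% of all 12108 genes were. At 100 counts or more, 3 of 45 (6.67%) were called, Ephb6, Sema3c and Sema3d, where 8.35% of all genes were. With an FPKM of at least 1 in the clone, 1 of 40 (2.50%) was called, Sema3c, where 6.35% of all genes were. Intervals below are exact binomial at 95% and cover counting error only. The scatter of shares usual for the depth was 4.72 to 70.1 times that of the binomial (median 10.2), so they understate the error.

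The secreted Sema3c, which acts on migrating neural crest cells and axons, was the random gene with the most counts behind its calls. Its share of 129 was 2.73% (0.566 to 7.76) in clone 129 at 110 counts and 9.66% (7.16 to 12.7) in mE6 at 476 counts. In the other 6 clones it was 22.4% to 42.6%, while the ES lines had 60.3% (XX) and 58.0% (XY). Clone 129 also had the lowest FPKM of Sema3c, 0.984, where the others had 2.05 to 6.21. Sema3d, a secreted paralog, was the only one of the 11 with calls for both alleles, 95.9% (93.4 to 97.6) in mC3 at 387 counts and 11.1% (2.35 to 29.2) in clone 129 at 27 counts. In the other clones Sema3d had 50.2% to 80.7%, and in the ES lines 17.9% and 13.9%. Ephb6, an Eph receptor without kinase activity, came from 129 in mB4 (85.8%, 81.2 to 89.5, at 295 counts) and had 26.9% to 76.5% in the other 7 clones.

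The calls of the other random genes rested on at most 174 counts. Ntng1, a netrin anchored to the membrane, had 100% from 129 in mC3, mB4 and mG3 at 52, 25 and 97 counts (lower bounds 93.2%, 86.3% and 96.3%) and 71.4% in mE6, while C2 had 32.04%, G4 39.1% and E1.2 37.5%. Its shares thus split by line, with every XY clone above every testable XX clone. The XY ES line was also called for 129, with 100% at 27 counts, and the XX ES line had 0 counts. Robo3, which controls midline crossing, had 89.7% (84.1 to 93.8) in E1.2, 91.0% (81.5 to 96.6) in mC3 and 100% (95.5 to 100) in mG3, but 24.6% (20.3 to 29.3) in C2 at 366 counts, its best-read clone. In the ES lines Robo3 was called for opposite alleles, 12.2% in the XX line and 100% in the XY line, at 41 and 30 counts. Slit1 came from 129 in G4 (88.8%, 82.8 to 93.2, at 160 counts) and had 48.4% to 84.7% in the other clones, with 2.93% and 18.1% in the XX ES and XY ES line at 581 and 487 counts. Slit2 came from Cast in mE6, with 1.08% (0.0272 to 5.85) from 129 at 93 counts, but had 52.9% and 56.0% in C2 and G4 at 709 and 886 counts. Single calls for Cast were made for Efna5 in mE6 (7.69%, 2.54 to 17.05, at 65 counts), Epha3 in clone 129 (10.3%, 2.19 to 27.4, at 29 counts) and Sema7a in G4 (2.44%, 0.0617 to 12.9, at 41 counts). Sema4f was called for 129 in E1.2 (100%, 92.6 to 100, at 48 counts). Unc5d, a receptor outside the rule since it was testable in 4 clones, had a share of 5.53% (2.89 to 9.46) in mC3 at 217 counts and 0.448% (0.0114 to 2.47) in mB4 at 223 counts. In E1.2 it was 3.33% at 30 counts, but in G4 45.9% (35.8 to 56.3) at 98 counts.

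A test asked whether shares differ among the clones beyond the scatter usual at their depth. It called 0 of the 54 guidance genes and 0 of all 12108 genes (quasi-binomial F test). Since it called no gene at all, its 0 says nothing about guidance genes in particular. In this test, 3 of the 54 guidance genes and 917 of all 12108 genes had an unadjusted p under 0.05. The 3 guidance genes were Ephb2 (unadjusted p = 0.00787 in this fit across all genes, adjusted p = 0.428), Nrp2 (0.0109, adjusted 0.442) and Sema5a (0.0378). A chi-square in place of the F distribution assumes 1 overdispersion for all genes of a depth. With it, 16 of the 54 guidance genes and 2386 of all 12108 genes were called. The choice between the 2 distributions was made after their counts of calls were known.

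Nrp2 had a 129 share of 24.9% (24.2 to 25.6) in E1.2, against 45.0% to 59.1% in the other 7 clones, while the ES lines had 19.8% (XX) and 27.6% (XY). E1.2 lay between the ES lines and below every other clone, and it also had the highest Nrp2 level of the clones. Split by allele, E1.2 had 32.5 CPM from 129 and 98.2 CPM from Cast, where the other clones had 10.6 to 26.0 and 11.4 to 23.2 CPM. The ES lines had 144 and 213 CPM from 129 and 584 and 558 CPM from Cast. From the same line as E1.2, clone 129 had 52.8%, C2 51.3% and G4 49.3%. The part of the cell types whose markers were partly high in E1.2 was not tested.

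Ephb2 split by line. Its 129 share was 20.9%, 21.99%, 35.0% and 31.3% in the XX clones (129, C2, G4, E1.2), and 47.3%, 51.9%, 49.4% and 58.5% in the XY clones (mC3, mE6, mB4, mG3). The XX and XY ES lines had 56.7% and 58.1%, so every XX clone lay below every XY clone and both ES lines. The level did not follow the same split: it was 16.8, 13.5, 25.4 and 26.0 FPKM in the XX clones, 27.0 FPKM in mC3 and 4.76 to 5.78 FPKM in the other 3 XY clones, with 8.35 and 7.67 FPKM in the ES lines. Cast contributed 218 to 414 CPM in the XX clones and 297 CPM in mC3, against 46.2 to 57.6 CPM in the other XY clones and 71.4 and 65.4 CPM in the ES lines. In mC3 the 129 allele was at 267 CPM, about level with Cast. The scatter of Ephb2 shares was 39.7 times the usual one for its depth, and that of Nrp2 31.5 times. Both lay above the 95th percentile of all genes, where about 1 in 20 genes lie by definition. Of the 54 guidance genes tested, these 2 lay there. The measure was added after the values were seen and uses the same shares, so it gives no separate support.

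**Figure D4:**
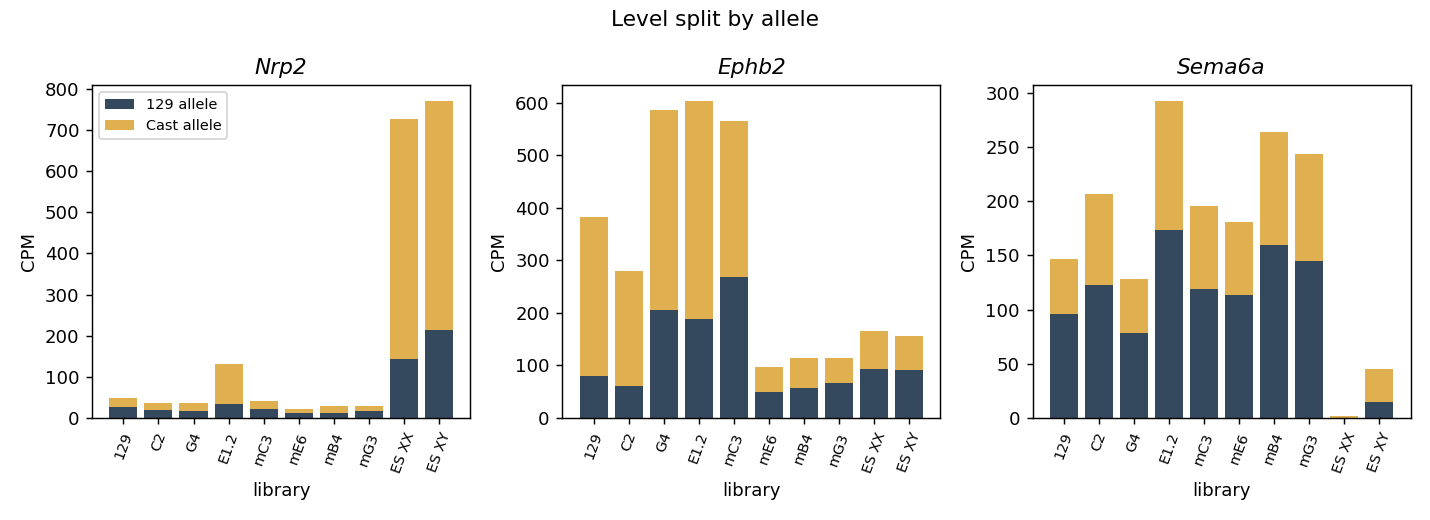
Level of Nrp2, Ephb2 and Sema6a in each library in CPM, split into the 129 and Cast alleles (stacked bars from 0, NPC clones left of ES lines). Nrp2 is carried mostly by Cast in E1.2 and the ES lines, and Ephb2 by Cast in the XX clones.

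Across groups, shares were set side by side for genes with at least 100 counts in each library, a comparison added after the values were seen. Between NPC clones and ES lines 9 of 31 guidance genes (29.0%) did not overlap, where 30.5% of all genes did not. The share of 129 was higher in the clones for Unc5a, Ephb3, Sema6a, Sema4g, Sema4b and Plxnb1, and lower for Plxnc1, Plxna4 and Sema3f. Sema6a had 59.2% to 65.2% in the clones, against 16.8% and 32.3% in the XX ES and XY ES line at 101 and 3220 counts. Ephb3 had 54.6% to 60.4% in the clones and 42.1% and 46.6% in the ES lines. Plxnc1 went the other way, with 42.4% to 49.5% in the clones and 79.9% and 55.4% in the ES lines, at 149 and 139 counts. Between XX and XY clones 3 of 38 (7.89%) did not overlap, where 5.66% of all genes did not: Nrp1 was higher in XX clones, and Plxnb2 and Ephb2 were lower. For Nrp1 the gap was narrow, with 46.5% to 57.7% in XX clones and 32.9% to 45.8% in XY clones, and the ES lines had 76.6% and 67.8% at 64 and 115 counts. It was as narrow for Plxnb2, with 46.0% to 48.2% in XX and 48.9% to 52.8% in XY clones. The part of feeder RNA in the ES shares was not tested, and the strain of the feeders is not given in the sources used here.

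**Figure D5:**
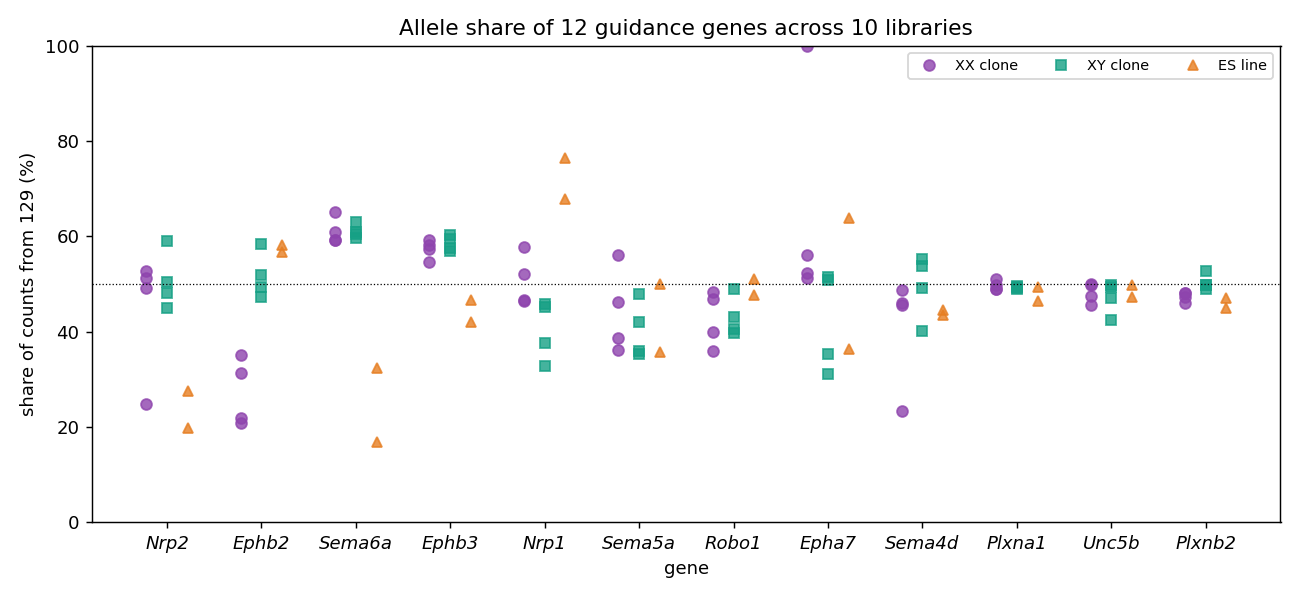
Share of counts from the 129 allele of 12 guidance genes in XX clones (circles), XY clones (squares) and ES lines (triangles), 1 point per library, with the dotted line at equal use. Ephb2 in XX clones, Nrp2 in E1.2 and the ES lines, and Sema6a in the ES lines lie below their other libraries, while Plxna1 and Plxnb2 lie near equal use; the Epha7 value of 100% in clone 129 rests on 16 counts.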

How the data were processed

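Polyadenylated RNA of 10 libraries was used (4 XX clones, 4 XY clones and 2 ES lines), read as paired ends of 100 bases. The 2 repeat libraries, from C2 and mC3, were left out and not analysed here. The mC3 repeat is XY by its title but female by its sex label, while the mC3 library used is labelled male. In the authors' deposited table each gene has, for each library, counts informative for the allele, the share of the counts from 129 (a fraction, printed in percent, marked nd where undetermined) and FPKM. Per the submitters' processing notes, the tools were SAMtools, Cufflinks 1.3.0 and TopHat 1.4.0, and the build was mm9. The step behind each column, the strain variants, and how a read covering several of them was counted are not given in the sources used here, so counts are not taken as molecules. The product of count and share was a whole number (tolerance 0.01) in 100% of autosomal values, and no row lacked a name.

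Counts of both alleles were compared over the whole table with edgeR 4.0.16 (TMM, filterByExpr, quasi-likelihood F test, Benjamini-Hochberg 0.05), with DESeq2 1.42.0 and limma 3.58.1 on log2(FPKM + 1) and log2(FPKM + 0.1) as alternatives. The SE beside an edgeR log2 fold change is its absolute value divided by the square root of the F statistic. It is an approximation that the fit does not give itself, and it depends on the prior where ES counts are near 0. CPM is scaled to the effective library total. FPKM compares genes, while counts and CPM depend on the variants in a gene. The heterogeneity test divides the Pearson statistic by an overdispersion that follows depth. Its F reference was taken up, then a chi-square, then F again after tests on simulated data. The edgeR and heterogeneity steps were tested on simulated data.

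The members and lists were chosen with earlier results of these data known. Named were the 12 largest rises and 12 largest falls past the threshold for NPC against ES, all random monoallelic genes, those past the threshold for XX against XY, and Dcc, Nrp1, Nrp2, Robo1, Robo2, Slit1, Slit2, Slit3, Ntn1 and Unc5b, which makes 35 genes. Other genes were named after their values were seen.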

Additional observations from a re-analysis of the deposited data

Results flagged for a closer look

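In groups of 4 clones, a value was picked out where the gap from the highest or lowest clone to its nearest neighbour was above Dixon's 95% critical value for 4 samples, as a part of the whole range. Groups were taken from the named genes only, with the level and the share of a gene as separate groups. Of 149 such groups, 16 were picked out. Chance alone picks out about 1 in 20, but many of these genes were named for their values. The 16 can therefore not be set against that rate.

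Among the XX clones, E1.2 had the highest Nrp2 level, 130.7 CPM (35.3 to 49.2 CPM in the other 3), and the lowest Nrp2 share from 129, 24.9% (49.3% to 52.8%). Clone 129 had the lowest Sema3c level, 1.63 CPM (10.5 to 11.7 CPM), the lowest Sema3c share, 2.73% (38.1% to 42.6%), and the lowest Sema4d share, 23.4% (45.7% to 48.7%). It had the highest Efna1 level, 0.37 CPM (0.1003 to 0.142 CPM). G4 had the highest levels of Slit1, 1.63 CPM (0.913 to 1.01 CPM), and Slit3, 1.68 CPM (0 to 0.203 CPM). C2 had the lowest share of Epha5, 49.3% (54.9% to 55.6%).

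Among the XY clones, mC3 had the highest levels of Ephb2, 564.8 CPM (96.1 to 114 CPM), Ephb3, 122 CPM (66.0 to 74.3 CPM), and Nrp1, 24.2 CPM (17.6 to 18.7 CPM), and the lowest share of Robo2, 59.0% (61.8% to 62.1%). mE6 had the lowest shares of Ntng1, 71.4% at 42 counts (100% in the other 3), and of Slit1, 55.3% (81.6% to 84.7%). Epha8 was at 0.115 CPM in mG3, at 10 counts, and at 0 in the other 3.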

How the results depend on the processing

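No paired analysis was possible because the clone numbers come from the order of the samples and pair no XX with XY clone and no NPC with ES library. Of the 42 calls for NPC against ES, 23 (14 higher, 9 lower) held under every one of 18 alternatives. Leaving out 1 library gave 18 to 23 higher and 12 to 21 lower genes, the lowest without the XX ES line. DESeq2 called 26 higher and 20 lower. Calls over all genes under these alternatives were not counted, so these counts have no background beside them. Calls of Robo1, Sema4g, Ephb4, Ephb6 and Sema3d were lost under 8, 7, 6, 5 and 5 alternatives, and those of Epha4, Slit3 and Unc5b under 2. Among called genes, several log2 fold changes moved by over 1.5 times when an ES line was left out. Without the XX ES line these were Ephb6 (-0.58), Sema4g (-0.29), Sema7a (-1.37), Sema6a (2.28) and Dcc (14.09). Without the XY ES line they were Ephb4 (-0.39), Sema3e (-1.72), Unc5b (-0.87), Sema6a (7.04), Ephb1 (12.69) and Epha3 (10.14). Efna5, not called, changed sign without TMM (-0.0588) and without the line covariate (-0.158), and ran from -0.527 without the XX ES line to 1.01 without the XY ES line, also below 0 without C2 or mG3. Sema3c, Ephb3, Unc5d and Slit2 were called under some alternatives only. For XX against XY, 7 genes passed in DESeq2 and 2 in either limma fit (Efna3 and Sema7a), with 0 to 2 on leaving out 1 clone. For the interaction, 2 passed in DESeq2, 1 without TMM, 2 in limma on log2(FPKM + 1), and 0 to 1 on leaving out 1 clone. In both comparisons the share of all genes that passed under the alternatives was not counted. The numbers of guidance genes therefore say nothing about these genes in particular. At 50 counts or more, 19 of 408 pairs were monoallelic, where 4757 of 93650 pairs of all autosomal genes were. At a major allele of 95%, 16 of 451 pairs were, where 3623 of 99965 were. Random monoallelic genes numbered 6 of 49 at 50 counts or more, where 1171 of all 11353 were. At a major allele of 95% they numbered 7 of 54, where 949 of all 12108 were. The 8 pairs and 3 genes at 100 counts, and the 1 gene at an FPKM of at least 1, are set beside all genes above. The chi-square reference called 16 of 54 guidance genes heterogeneous, where it called 2386 of all 12108 genes. The cause of these changes was not tested. Low counts limit the allele calls.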
